A study of Mus musculus with 36 samples.

Results

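The 9 genes described here encode the inducible catalytic subunits of the proteasome (Psmb8, Psmb9 and Psmb10), the constitutive subunits that they replace (Psmb5, Psmb6 and Psmb7), both subunits of the PA28 activator (Psme1 and Psme2) and tapasin (Tapbp). They were taken by gene symbol from a list chosen with earlier results of these data known. All 9 were found among the 36172 gene entries of the deposited table. Expression was measured by polyA RNA sequencing of mouse hippocampus in 36 libraries.

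All animals were Cx3cr1-NuTRAP mice. Tamoxifen activates a cre that is driven by the Cx3cr1 promoter, and recombined cells then carry GFP on their ribosomes, so that an anti-GFP antibody recovers ribosome-bound RNA from them (translating ribosome affinity purification, TRAP). The question of the study was how early or late tamoxifen induction performs in this model. Inputs are RNA of the whole homogenate, taken before the antibody was added. The young inputs came from 10 early-induced animals of 6 months (5 females and 5 males). The old early inputs came from 12 early-induced animals of 22 months (7 females and 5 males), and the old late inputs from 7 late-induced animals of 22 months (5 females and 2 males). The 7 TRAP libraries came from those same 7 old late-induced animals. Every group therefore carried the transgenes and was induced, and no uninduced or wild-type animals were compared. Cx3cr1 is also active in border macrophages, so the tag is not restricted to microglia. TRAP libraries of young or early-induced animals were not analysed here, so the age comparisons below are of whole tissue.

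The proteasome cuts intracellular proteins into peptides. Interferons, above all interferon gamma, can induce Psmb8 (LMP7), Psmb9 (LMP2) and Psmb10 (MECL-1), which are built into newly made particles in place of Psmb5, Psmb6 and Psmb7 to give the immunoproteasome, a form whose cutting preferences favour peptides that bind MHC class I. The PA28 activator caps the particle, the Tap1 and Tap2 transporter moves peptides into the endoplasmic reticulum, and tapasin holds empty MHC class I molecules at the transporter until a peptide is loaded. In the brain, microglia are a known source of immunoproteasome and MHC class I transcripts.

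In the deposited table, Psmb9 lies on chr17:34182099-34187330 (minus strand) and Psmb8 on chr17:34198195-34201454 (plus strand), on either side of Tap1, and Tapbp lies on the same chromosome at chr17:33919478-33929290. Psme1 (chr14:55578494-55581527) and Psme2 (chr14:55587440-55591101) face each other with 5913 bases between their ends, and Psmb5 (chr14:54614120-54617995) is on the same chromosome. Psmb10 (chr8:105935728-105938392), Psmb6 (chr11:70525357-70527858) and Psmb7 (chr2:38588046-38643906) lie apart. Psmb9 and Tap1 start 226 bases apart and are transcribed away from each other, and 970 bases separate the end of Tap1 from the start of Psmb8.

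To set inducible genes beside constitutive ones, the promoters of Psmb8 and Psmb9, of the PA28 gene Psme1 and of the constitutive Psmb5 and Psmb6 are given from RefSeq's annotation of GRCm38.p6, as the strand of the gene from 250 bases before the annotated start to 20 after it. Of the 9 genes, 8 had a promoter entry. Positions are counted from the annotated start as 0. Capitals mark matches, on either strand, to a gamma-activated site (TTCNNNGAA), an interferon regulatory factor core (GAAANNGAA), a CCAAT box (CCAAT) or an antioxidant response element core (TGACNNNGC), and no match in the windows shown overlapped another. Among 32851 promoter windows of the same length, 7.58% held the first, 7.76% the second, 35.4% the third and 11.1% the fourth. A match describes the letters only.
Psmb8, chr17:34197945-34198214, plus strand: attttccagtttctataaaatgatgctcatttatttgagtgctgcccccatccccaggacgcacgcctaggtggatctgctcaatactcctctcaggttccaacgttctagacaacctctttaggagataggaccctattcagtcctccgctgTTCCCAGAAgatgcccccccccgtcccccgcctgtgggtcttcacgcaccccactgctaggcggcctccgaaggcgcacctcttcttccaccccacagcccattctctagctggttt
Psmb9, chr17:34187311-34187580, minus strand: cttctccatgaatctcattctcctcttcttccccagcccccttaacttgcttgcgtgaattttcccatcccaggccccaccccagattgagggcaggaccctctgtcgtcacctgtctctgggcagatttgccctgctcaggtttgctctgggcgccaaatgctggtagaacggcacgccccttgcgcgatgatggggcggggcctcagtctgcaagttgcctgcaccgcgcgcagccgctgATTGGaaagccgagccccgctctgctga
Psme1, chr14:55578244-55578513, plus strand: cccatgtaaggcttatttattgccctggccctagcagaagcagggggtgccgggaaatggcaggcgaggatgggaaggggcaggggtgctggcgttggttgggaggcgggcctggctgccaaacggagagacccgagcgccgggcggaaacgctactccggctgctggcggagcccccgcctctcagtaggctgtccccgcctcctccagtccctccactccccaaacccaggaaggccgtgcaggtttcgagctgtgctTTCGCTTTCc
Psmb5, chr14:54617976-54618245, minus strand: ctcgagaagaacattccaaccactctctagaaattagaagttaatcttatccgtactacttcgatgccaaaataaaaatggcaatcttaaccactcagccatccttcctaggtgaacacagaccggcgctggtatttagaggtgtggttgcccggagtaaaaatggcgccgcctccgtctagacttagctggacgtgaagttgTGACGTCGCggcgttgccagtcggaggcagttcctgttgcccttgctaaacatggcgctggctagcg
Psmb6, chr11:70525107-70525376, plus strand: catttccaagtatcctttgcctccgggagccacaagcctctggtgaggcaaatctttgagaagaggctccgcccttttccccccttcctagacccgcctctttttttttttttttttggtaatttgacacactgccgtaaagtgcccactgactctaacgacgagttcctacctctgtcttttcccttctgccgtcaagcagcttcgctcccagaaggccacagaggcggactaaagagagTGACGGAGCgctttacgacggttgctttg
In Psmb8 the match TTCCCAGAA to the gamma-activated site stood at -97 to -89. The Psmb9 window, of which 265 bases are also the Tap1 window read from the other strand, held a CCAAT box on the opposite strand at -8 to -4. Psme1 held an interferon regulatory factor core on the opposite strand, TTCGCTTTC, at 10 to 18. Psmb5 (TGACGTCGC, -47 to -39) and Psmb6 (TGACGGAGC, -9 to -1) held the antioxidant response element core. Tapbp, not shown, held 2 CCAAT boxes, and the windows of Psmb10 and Psme2 held none of the 4 patterns.

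The libraries held between 12.9 and 20.4 M estimated counts. Levels are given as CPM, counts scaled by the library's total after TMM, edgeR's correction for composition. Fold changes and p-values are from edgeR's quasi-likelihood test with Benjamini-Hochberg adjustment over all genes tested, and a gene was called at an adjusted p under 0.05. Among old early inputs, replicate 5 had the highest level of 7 of the 9 genes. It also had the highest summed level of blood markers (2274 CPM, group median 250) and of choroid plexus markers (4191 CPM, group median 116). The choroid plexus sums had medians of 2058 CPM in young and 2079 CPM in old late inputs, so the old early median was the lowest of the inputs. Among TRAP libraries, replicate 3 was highest in 6 of the 9 genes and in the summed microglia markers. Results without these libraries are given where they differ. Nothing in the labels ties libraries to a batch, and the running numbers in the sample titles were 1 to 23 for old early, 25 to 38 for old late and 39 to 57 for young libraries, so that any effect of that order and the groups cannot be told apart.

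The pulldown was compared with the input of the same 7 animals, in a fit with sex but without the animal as a block. The TRAP fraction was enriched over input for the inducible subunits Psmb8 and Psmb9, which were 12.2-fold and 11-fold higher in TRAP than in input. Tapasin was 3.97-fold higher, both PA28 subunits and Psmb10 were about doubled, and the constitutive Psmb5 and Psmb7 were nearly level. In all, 7 of the 9 genes rose, against 30.4% of the 14596 genes tested that were called higher and 28.8% that were called lower. The median log2 fold change was 1.15 over the 9 genes and -0.02 over all genes.

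Psmb8, the inducible subunit with chymotrypsin-like activity, measured 5.35 to 10.1 CPM in the old late inputs (median 6.70) and 56.5 to 152 CPM in TRAP (median 76.7). All 7 TRAP libraries lay far above all inputs, and replicates 3 and 5 were the highest. The log2 fold change of Psmb8 was 3.61 ± 0.20 (SE, adjusted p = 6.29e-11). Psmb9, which replaces Psmb6, measured 1.30 to 3.04 CPM in the inputs (median 2.38) and 14.4 to 49.7 CPM in TRAP (median 24.7). The groups again did not overlap, and TRAP replicate 3 was the highest. Its log2 fold change was 3.46 ± 0.21 (SE, adjusted p = 3.59e-10).

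Psmb10, which replaces Psmb7, behaved differently from the other 2 inducible subunits in size. It measured 29.9 to 45.7 CPM in the inputs (median 34.1) and 58.0 to 86.9 CPM in TRAP (median 62.5), with every TRAP library above every input. Its log2 fold change was 0.94 ± 0.10 (SE, adjusted p = 6.26e-07), or 1.91-fold. The 95% intervals of the log2 fold change were 3.2 to 4.03 for Psmb8, 3.01 to 3.91 for Psmb9 and 0.72 to 1.15 for Psmb10, so that of Psmb10 lay below both others. The difference between genes was not itself tested.

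The constitutive subunits showed little or no difference. Psmb5 measured 127 to 154 CPM in the inputs (median 138) and 125 to 153 CPM in TRAP (median 142), and the groups overlapped fully. Psmb7 measured 132 to 158 CPM in the inputs (median 142) and 133 to 157 CPM in TRAP (median 149), also overlapping. Their log2 fold changes were 0.00 for Psmb5 (95% interval -0.09 to 0.10) and 0.01 for Psmb7 (95% interval -0.09 to 0.12), and neither was called. Both values depended on the scaling: with upper quartile scaling, which moved the median of all genes to -0.16, both were called lower, at -0.14 for Psmb5 (adjusted p = 0.0169) and -0.13 for Psmb7 (adjusted p = 0.0297) by edgeR's quasi-likelihood test. Both values lay slightly above that median.

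Psmb6 was higher in 6 of 7 TRAP libraries than in any input, from 105 to 142 CPM (median 119) against 95.8 to 109 CPM (median 98.5). On the log2 scale the difference was 0.24 ± 0.06 (SE, adjusted p = 0.00274), a call that was lost under upper quartile scaling (0.09, adjusted p = 0.161).

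The fold changes of the activator subunits and tapasin lay above that of Psmb10 and below those of Psmb8 and Psmb9, differences between genes that were not tested. Psme1 (PA28 alpha) measured 38.9 to 51.7 CPM in the inputs (median 42.5) and 78.8 to 133 CPM in TRAP (median 91.5). Psme2 (PA28 beta) measured 26.2 to 32.3 CPM in the inputs (median 30.9) and 53.1 to 91.5 CPM in TRAP (median 61.5). Neither gene's groups overlapped, and both PA28 subunits rose by much the same amount, 2.27-fold for Psme1 (adjusted p = 8.9e-08) and 2.22-fold for Psme2 (adjusted p = 2.28e-07). Tapbp measured 33.2 to 42.2 CPM in the inputs (median 36.2) and 109 to 216 CPM in TRAP (median 132). The TRAP libraries stood clear of the inputs, and its log2 fold change was 1.99 ± 0.13 (SE, adjusted p = 6.53e-10). In all, 6 of the 9 genes had TRAP libraries that lay wholly above the inputs, as had 19.6% of all genes tested.

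**Figure D1:**
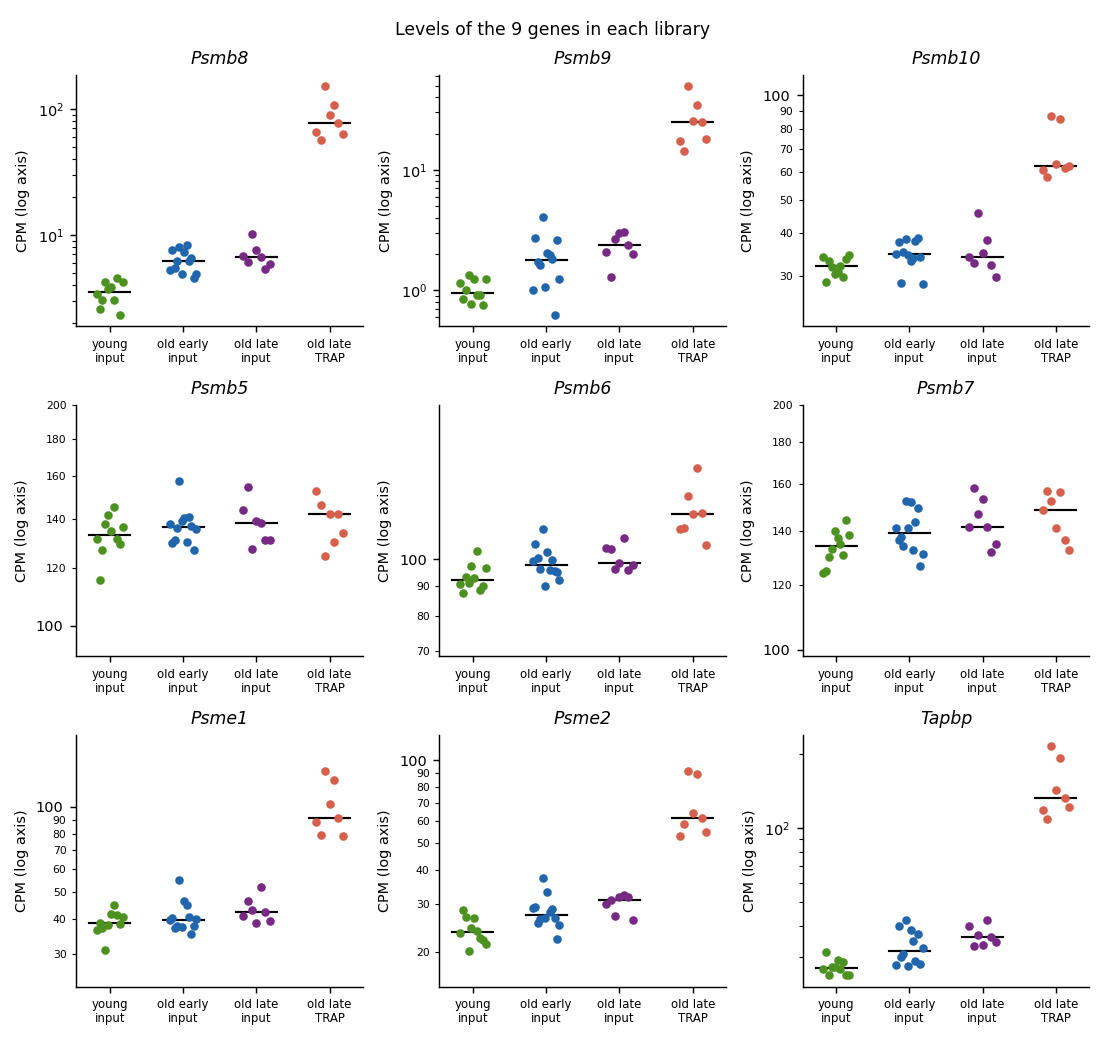
Level of each of the 9 genes in each library, in CPM on a log axis, for 10 young inputs, 12 old early inputs, 7 old late inputs and 7 TRAP libraries; points are libraries and bars are medians. Psmb8 rises from a median of 3.55 CPM in young to 6.23 and 6.70 CPM in old inputs and 76.7 CPM in TRAP, whereas Psmb5 has medians from 133 to 142 CPM in all 4 groups.

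Animal by animal, the ratio of TRAP to input was above 1 in 7 of 7 animals for all genes but Psmb5 and Psmb7, for which it was above 1 in 4 of 7. The ratio ran from 9.25 to 15.9 for Psmb8 (median 11.6), from 8.34 to 18.8 for Psmb9 (median 10.4), from 2.99 to 5.87 for Tapbp (median 3.66) and from 1.76 to 2.24 for Psmb10 (median 1.90). Psmb6 stayed between 1.07 and 1.32. For the summed level of 25 microglia markers the ratio ran from 16.1 to 20.9 (median 18). No ratio of Psmb8 reached the lowest of the marker sum, whereas that of Psmb9 in animal 3 (18.8) exceeded it. Abundant markers weigh most in such a sum. The fitted log2 fold changes of single markers ran from 2.93 to 4.68 for microglia and from 3.45 to 3.98 for border macrophages. Psmb8 (3.61) and Psmb9 (3.46) lay within both ranges. Animal 3 had the highest ratio for Psmb9, Psmb6, Psme1, Psme2, Tapbp and the marker sum. Leaving out its TRAP library left all 7 calls in place, with a log2 fold change of 3.27 for Psmb9.

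**Figure D2:**
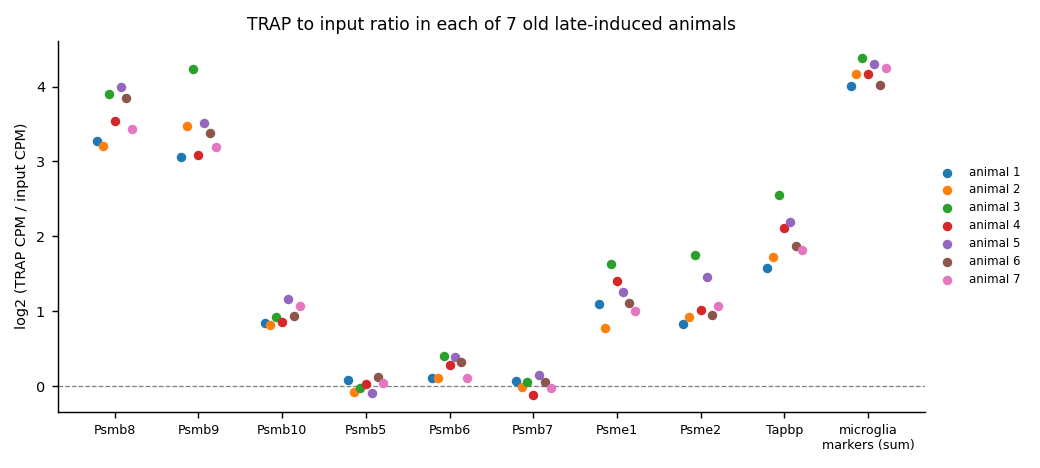
Log2 ratio of TRAP CPM to input CPM in each of the 7 old late-induced animals, for the 9 genes and the sum of 25 microglia markers; each point is an animal and the dashed line marks equal levels. Psmb8 and Psmb9 sit between 3.06 and 4.23, below or near the marker sum, and Psmb5 and Psmb7 scatter around 0.

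Markers of other cells moved with the pulldown too. Of the microglia markers, 25 of 25 were called higher in TRAP (median log2 fold change 4.29), and their summed level was 1000 to 1464 CPM in the inputs and 18168 to 29446 CPM in TRAP. Of 8 border macrophage markers, 8 were higher (median 3.83), with sums of 23.4 to 54.5 CPM in the inputs and 388 to 652 CPM in TRAP. Of 9 endothelial markers, 8 were higher (median 1.07), with sums of 151 to 195 CPM and 273 to 415 CPM. Oligodendrocyte markers were lower for 8 of 8 genes, astrocyte markers for 7 of 8, and neuron markers for 5 of 9. Their summed levels had input medians of 5632, 4679 and 7404 CPM and TRAP medians of 2123, 3825 and 6499 CPM. TRAP libraries thus still held much RNA of other cells, and the levels of the 9 genes in TRAP include it. The summed level of 11 T and NK cell markers had a median of 3.78 CPM in TRAP and 4.81 CPM in the inputs. Of the 3 tested, 1 was called higher and 1 lower. The highest sum was 11.2 CPM in TRAP, in replicate 3, against 6.97 CPM in the inputs. It came mostly through Ccl5, which had 2 to 108 estimated counts in TRAP. Cd8a had 2 to 31 counts in TRAP (median 4) and 6 to 18 in the inputs (median 10). Cd3e had at most 3.56 counts in any TRAP library. Mtap2, the table's symbol for Map2, and Acta2 were listed at 0 in every library. The part of these cell types in the levels of the 9 genes was not tested, and in such bulk samples more cells of a type and more RNA per cell cannot be told apart.

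The 3 pairs of inducible and constitutive subunit were then set side by side per kilobase of transcript. In young inputs Psmb8 stood at 2.18 CPM per kilobase beside 148 for Psmb5, Psmb9 at 0.705 beside 115 for Psmb6, and Psmb10 at 24.4 beside 116 for Psmb7 (medians). In hippocampal tissue, then, Psmb10 was the most abundant inducible subunit per length and Psmb9 the least. In TRAP the medians were 47.1 CPM per kilobase for Psmb8, 18.3 for Psmb9 and 47.7 for Psmb10, so Psmb8 and Psmb10 were at like levels there.

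As a share of its pair per length, Psmb8 made up 0.984% to 1.87% in young inputs (median 1.42%), 1.90% to 3.44% in old early inputs (median 2.43%), 2.14% to 4.21% in old late inputs (median 2.52%) and 17.6% to 40.2% in TRAP (median 23%). The young libraries lay wholly below both old groups. Psmb9 made up a median of 0.618% of its pair with Psmb6 in young inputs, 1.02% in old early inputs, 1.43% in old late inputs and 10.9% in TRAP, with overlap among the input groups. Psmb10 held a median of 17.3% of its pair with Psmb7 in young, 18.4% in old early and 17.5% in old late inputs, and 28.6% in TRAP. Its input groups overlapped throughout. These shares compare transcripts, not assembled particles, and carry no test.

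**Figure D3:**
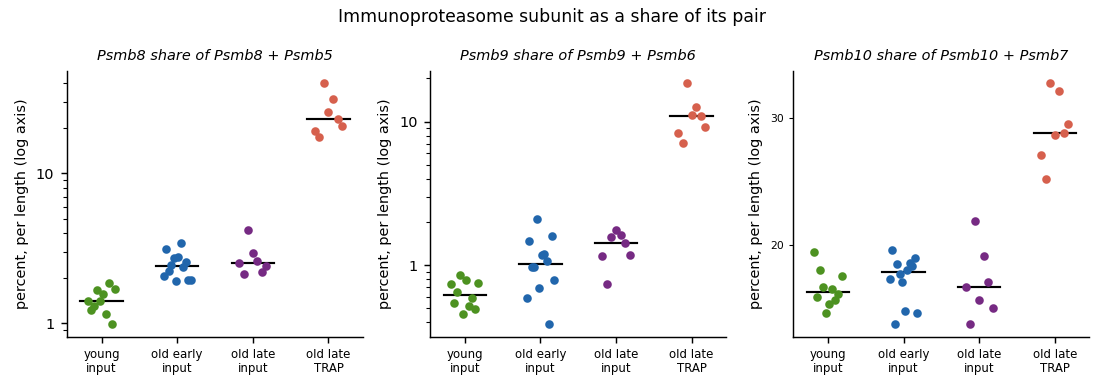
Inducible subunit as a percent of the pair, per transcript length and on a log axis, in each library; bars are medians. The share of Psmb8 has medians of 1.42% in young, 2.43% in old early and 2.52% in old late inputs and 23% in TRAP, and that of Psmb10 stays between medians of 17.3% and 18.4% in the inputs.

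The next comparison asked which of these genes differed with age in whole hippocampus of early-induced animals. Psmb8 and Psmb9 were 1.80-fold and 1.85-fold higher at 22 than at 6 months, Tapbp 1.22-fold and Psme2 1.18-fold. In all, 5 of the 9 genes were called higher and 0 lower, against 13% of 14948 genes called higher and 12.6% called lower. The median log2 fold change was 0.13 over the 9 genes and 0.01 over all genes.

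Psmb8 measured 2.33 to 4.52 CPM in young inputs (median 3.55) and 4.59 to 8.38 CPM in old early inputs (median 6.23). The highest young library stood just under the lowest old one, so the groups did not overlap. Old libraries lay wholly above young ones for 0.850% of the genes tested. That gave a log2 fold change of 0.85 ± 0.13 (SE, adjusted p = 2.76e-05). Psmb9 was much scarcer, at 0.755 to 1.34 CPM in young inputs (median 0.953, or 12 to 22 counts a library) and 0.626 to 4.09 CPM in old early inputs (median 1.76). Of 12 old libraries, 8 exceeded every young one, the lowest old library lay under all of them, and replicate 5 was the highest. Its log2 fold change was 0.89 ± 0.23 (SE, adjusted p = 0.00523), and 0.71 without replicate 5 (adjusted p = 0.0163).

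Tapbp measured 25.2 to 31.4 CPM in young inputs (median 27) and 27.6 to 42.1 CPM in old early inputs (median 31.6). All 12 old libraries exceeded the young median and 6 exceeded every young library. On the log2 scale Tapbp rose by 0.29 ± 0.07 (SE, adjusted p = 0.00286). Psme2 measured 20.3 to 28.6 CPM in young inputs (median 23.7) and 22.4 to 37.3 CPM in old early inputs (median 27.4), with 5 of 12 old libraries above every young one. Its log2 fold change was 0.24 ± 0.07 (SE, adjusted p = 0.00788).

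The inducible subunit Psmb10 and the PA28 subunit Psme1 were not called. Psmb10 measured 28.9 to 34.6 CPM in young inputs (median 32) and 28.5 to 38.8 CPM in old early inputs (median 34.7), a log2 difference of 0.13 (95% interval 0.00 to 0.25, adjusted p = 0.129). Psme1 measured 31 to 44.8 CPM in young inputs (median 38.7) and 35.4 to 55.1 CPM in old early inputs (median 39.7), a log2 difference of 0.09 (95% interval -0.05 to 0.23, adjusted p = 0.356). Both genes overlapped widely between ages. The upper bounds lay below the lower bound of Psmb8, 0.58, but the differences between these genes were not tested.

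Of the constitutive subunits, Psmb6 was called at a log2 fold change of 0.10 (adjusted p = 0.0467), with medians of 92.0 CPM in young and 97.7 CPM in old early inputs. That call stood at the threshold and was lost without 23 of the 29 input libraries, each left out in turn, and without old early replicate 5 the value was 0.07 (adjusted p = 0.128). Psmb5 had medians of 133 and 136 CPM and Psmb7 of 134 and 139 CPM. Their log2 differences were 0.05 (95% interval -0.03 to 0.13) and 0.07 (95% interval -0.0019 to 0.15), and neither was called.

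The age comparison was also fitted within each sex, on fewer libraries. In females alone Psmb8 remained called (0.79, adjusted p = 0.0127), whereas Psmb9 (0.85, adjusted p = 0.0574), Tapbp (0.21, adjusted p = 0.0831), Psme2 (0.13, adjusted p = 0.318) and Psmb6 (0.04, adjusted p = 0.690) were not, by the same edgeR test. In males alone, a fit added after the data were seen, Psmb8 (0.92, adjusted p = 0.00692) and Psme2 (0.37, adjusted p = 0.0347) were called, and Psmb9 (0.96, adjusted p = 0.0850), Tapbp (0.38, adjusted p = 0.0511) and Psmb6 (0.16, adjusted p = 0.0701) were not. Psmb9, Tapbp and Psmb6 thus lost their calls in both sexes alone. The difference itself was tested as an interaction of age and sex in the 22 early-induced inputs, also added. It gave 0 calls among 14953 genes by edgeR and 13 by DESeq2, and the smallest adjusted p among the 9 genes was 0.245 by edgeR, for Psmb7. At an unadjusted p under 0.05 it marked 3 of the 9 genes, Psmb5, Psmb7 and Psme1, against 15.4% of all genes.

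Psme1 had the largest gap of these 3. Its female medians were 41.3 CPM in young and 37.8 CPM in old early inputs, and its male medians were 37.2 and 40.5 CPM. The male minus female difference in the age effect was 0.32 ± 0.12 (log2, SE, adjusted p = 0.252 in edgeR's test). Between the sexes in all inputs, 0 of the 9 genes were called by edgeR, against 0.174% of all genes, and the log2 differences of males from females ran from 0.02 to 0.13.

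Old late-induced animals were compared with the same young inputs, so the 2 age comparisons share their controls. Those young animals were early-induced, so age and induction schedule differ together in this comparison and cannot be told apart. Here 6 of the 9 genes were called higher and 0 lower, against 17% of genes called higher and 17.5% called lower, and the median log2 fold change was 0.17 over the 9 genes and 0.01 over all genes. The sizes were 2.00-fold for Psmb8, 2.39-fold for Psmb9, 1.37-fold for Tapbp and 1.28-fold for Psme2.

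The old late inputs measured 5.35 to 10.1 CPM for Psmb8, all above the young range, and the log2 fold change was 1.00 ± 0.15 (SE, adjusted p = 9.9e-06). For Tapbp, at 33.2 to 42.2 CPM, the groups also stood apart, with a log2 fold change of 0.45 ± 0.08 (SE, adjusted p = 8.88e-05). For these 2 of the 9 genes the old late inputs lay wholly above the young ones, as they did for 2.41% of all genes tested. Psmb9 was above every young library in 6 of 7 old late inputs and had a log2 fold change of 1.26 ± 0.26 (SE, adjusted p = 4.75e-04). Psme2 was above every young library in 5 of 7, with a log2 fold change of 0.36 ± 0.08 (SE, adjusted p = 6.53e-04).

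The remaining genes differed by small amounts. Psmb6 (0.14, adjusted p = 0.0115) and Psmb7 (0.13, adjusted p = 0.0231) were called, and both calls were lost in females alone (0.09 with adjusted p = 0.212 and 0.06 with adjusted p = 0.473). That of Psmb7 was also lost when old late input replicate 2, 3 or 4 or young replicate 8 was left out (log2 values from 0.10 to 0.14 over all single libraries, largest adjusted p = 0.0945). Psmb10 (0.17, 95% interval 0.02 to 0.32, adjusted p = 0.0637), Psme1 (0.17, 95% interval 0.02 to 0.33, adjusted p = 0.0813) and Psmb5 (0.07, 95% interval -0.02 to 0.16, adjusted p = 0.215) were not called. Psmb10 was called without old late replicate 6 or 7, and with upper quartile scaling (0.19, adjusted p = 0.0399). Without old late input replicate 3, the library with its highest level, its value was 0.09 (adjusted p = 0.283). Psme1 was called without young replicate 7 (smallest adjusted p over single libraries 0.0445). All these p-values are from edgeR's quasi-likelihood test.

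Late and early induction were compared in old inputs. None of the 9 genes was called by edgeR, and only Tapbp had an unadjusted p under 0.05, of 0.0489. Over all genes 5 were called, or 0.0334%, 1736 had an unadjusted p under 0.05, and DESeq2 called 58. The late group had the higher fitted level for all 9 genes, by log2 differences from 0.02 for Psmb5 to 0.37 for Psmb9. The 95% intervals were -0.14 to 0.44 for Psmb8, -0.12 to 0.86 for Psmb9 and 0.00 to 0.32 for Tapbp. These data therefore do not show that the groups had equal levels.

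**Figure D4:**
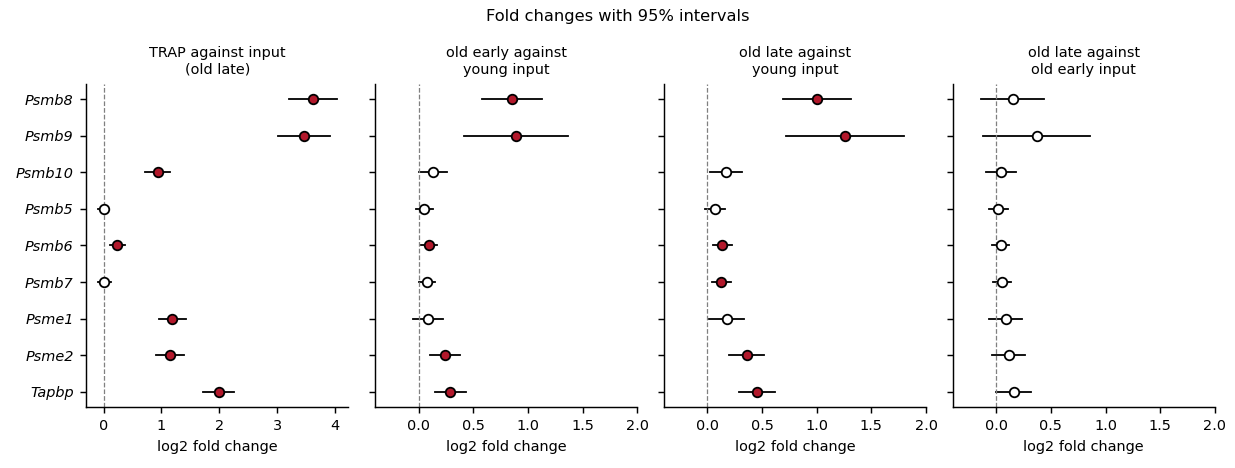
Log2 fold change of each gene with its 95% interval in 4 comparisons; filled points were called by edgeR, and the horizontal scale of the TRAP panel is wider than that of the others. Psmb8 and Psmb9 have the largest values in the TRAP panel (3.61 and 3.46) and in both age panels, and no point is filled in the panel of late against early induction.

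Beside these age differences, 24 of 25 microglia markers were called higher in old early inputs (median log2 fold change 0.47) and 25 of 25 in old late inputs (median 0.65). Their summed level was 699 to 817 CPM in young, 945 to 1138 CPM in old early and 1000 to 1464 CPM in old late inputs, without overlap between ages. Oligodendrocyte markers were higher for 7 of 8 genes in old early and 8 of 8 in old late inputs. Border macrophage markers were not called in old early inputs (0 of 8), and in old late inputs 1 was higher and 1 lower. Of the T and NK cell markers 3 of 11 had enough counts to be tested, of which 2 were higher in old early and 1 in old late inputs, with summed levels of 1.89 to 3.88 CPM in young, 3.12 to 6.84 in old early and 3.28 to 6.97 CPM in old late inputs. Blood markers were higher for 2 of 4 genes in old early and 4 of 4 in old late inputs. Of 7 choroid plexus markers 0 were called in either, with median log2 fold changes of -0.64 in old early and 0.32 in old late inputs. Between late and early induction their median was 1.11, also with 0 called. The part of these shifts in the levels of the 9 genes was not tested.

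Other genes of the pathway were described from lists chosen with earlier results of these data known. Among genes of peptide transport, trimming and loading, 10 of 10 were higher in TRAP (median log2 fold change 1.56), against 30.4% of all genes. In both age comparisons 7 of 10 were higher, against 13% and 17% of all genes. The list medians were 0.44 in old early and 0.50 in old late inputs. The transporter gene Tap1 rose by 2.06 on the log2 scale in TRAP, 0.54 in old early and 0.53 in old late inputs. The last call was lost without old late input replicate 3 (0.41, adjusted p = 0.0633 in edgeR's test). Tap2 rose by 1.36, 0.50 and 0.57. The MHC class I light chain gene B2m rose by 3.33, 0.50 and 0.80, and the heavy chain genes H2-K1 (2.78, 0.72 and 1.09) and H2-D1 (3.10, 0.67 and 1.10) likewise. In females alone Tap1, Tap2 and H2-D1 were not called in old early inputs, nor Tap1 in old late inputs.

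The rest of the 20S core, the barrel into which these subunits are built, showed small differences. In TRAP 7 of 13 of its other genes were higher and 0 lower (median log2 fold change 0.16), against 30.4% of all genes called higher. The largest value, 1.84, was that of Psma8, a testis-type alpha subunit with 7.51 to 54 estimated counts in TRAP and 2 to 12 in the inputs. In old early inputs 7 of 12 tested were higher, against 13% of all genes (median 0.12, with Psma3 the largest called value at 0.16). In old late inputs 7 of 12 were higher, against 17% (median 0.13, with Psma2 the largest called value at 0.18). The 9 genes, with 5 of 9 called at a median of 0.13 in old early and 6 of 9 at 0.17 in old late inputs, were called about as often as these subunits, and their medians were close. Single genes differed: Psmb8 (0.85 and 1.00), Psmb9 (0.89 and 1.26), Tapbp (0.29 and 0.45) and Psme2 (0.24 and 0.36) exceeded all these subunits. Psmb5, Psmb6, Psmb7, Psmb10 and Psme1 lay within their range in both comparisons. Differences between genes were not tested. The 19S regulatory particle recognises and unfolds substrates. Of its 20 genes, 5 were higher and 4 lower in TRAP (median 0.02), against 30.4% and 28.8% of all genes. The small subunit Sem1, listed as Shfm1, was at 0.44 and Psmd1 at -0.22. In the inputs 4 of 20 were higher in old early and 9 of 20 in old late animals, against 13% and 17% of all genes, in both with the ubiquitin receptor gene Psmd4 the largest called value (0.12 and 0.17). In females alone the calls of Psma3 and Psmd4 in old early inputs and of Psma2 in old late inputs were lost.

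Among 11 tested activators, inhibitors and assembly factors, 3 were higher and 2 lower in TRAP (median 0.19). Over all genes 30.4% were called higher and 28.8% lower there. Pomp, the assembly chaperone of the 20S core, rose by 0.54 in TRAP. Psme4 (PA200), another proteasome cap, fell by 0.23 in TRAP, by 0.31 in old early and by 0.28 in old late inputs, while Psme2 rose in all 3 comparisons. In old early inputs 2 genes of this list were higher and 1 lower, against 13% and 12.6% of all genes. Psmd9 had the larger value of the 2 called higher (0.17). In old late inputs 3 were higher and 1 lower, against 17% and 17.5%, and Psmg4 had the largest called value (0.34). In females alone the calls of Psmd9 in old early and of Psme4 in old late inputs were lost.

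Of the genes of interferon signalling and MHC class I control, 12 of 14 tested were higher in TRAP (median log2 fold change 1.01), against 30.4% of all genes, among them Irf8 at 4.20, Nlrc5 at 1.92 and Irf1 at 1.59. In old early inputs 2 of 14 were higher (median -0.01), a share near the 13% of all genes, and of these Irf8, a factor needed by microglia, had the larger value (0.90). In old late inputs 3 were higher and 1, Tyk2, lower (-0.42), with a median of 0.08, against 17% of all genes called higher and 17.5% lower. Nlrc5, a transactivator of MHC class I genes, was at 0.66 in old early inputs without a call (adjusted p = 0.134) and at 1.44 in old late inputs (adjusted p = 0.00203 by edgeR's test). Irf1 was called in neither age comparison (0.01 and 0.14). Whether the 2 old groups differed in these genes is covered by the direct comparison, in which none was called. Ifng, the gene of interferon gamma, had 0 counts in 35 libraries and 2 counts in 1 old late input.

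**Figure D5:**
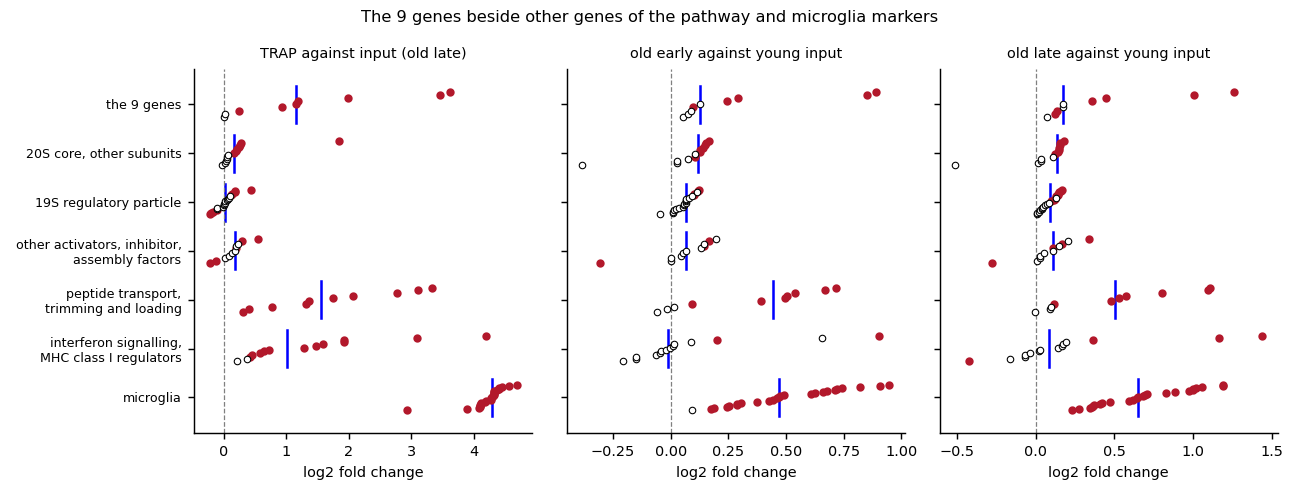
Log2 fold change of each tested gene in the 9-gene group, 5 other pathway lists and the microglia markers, in 3 comparisons with separate horizontal scales; filled points were called by edgeR and blue bars are list medians. In TRAP the medians are 0.16 for the other 20S subunits and 0.02 for the 19S particle, against 1.15 for the 9 genes, 1.56 for peptide loading and 4.29 for microglia markers.

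Over the 29 inputs, genes were ranked by Pearson's r between their log2 CPM and that of each inducible subunit. The ranking describes libraries that share age groups. It took the 12969 genes with an average log2 CPM over 1, so Psmb9, which lay below that level, was not a candidate. The genes closest to Psmb8 were Mid1ip1 (0.89), Slc48a1 (0.88) and Anxa3 (0.87), with H2-K1 ranked 4. With the group means removed the same genes had r of 0.61, 0.61 and 0.56, and H2-K1 0.67. For Psmb9 they were Cd81 (0.81), H2-K1 (0.79) and Arpc1b (0.79). Psmb10 was most like Ppp1r3f (0.78), Spsb2 (0.76) and Podxl2 (0.75), and removing the group means left these at 0.74, 0.70 and 0.73. Psmb8 and Psmb9 had an r of 0.72 with each other, and Psmb10 had 0.59 with Psmb8 and 0.44 with Psmb9. With the group means removed these fell to 0.43, 0.49 and 0.25.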

How the data were processed

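PolyA RNA of hippocampal inputs and TRAP eluates was sequenced. Estimated counts per gene for all libraries were deposited by the authors in 1 table, marked raw per the file headers. Among nonzero entries 77.4% were not whole numbers (any fractional part counted). How reads shared by several features were counted is not given in the sources used here, so values of near-identical copies (pseudogenes of Psmb5, Psmb6, Psmb7 and Psme2) and overlapping genes are uncertain. mm10 and DESeq2 are named in the submitters' processing notes without a role. The aligner, the counter and the use of strand are not given in the sources used here.

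Estimated counts were rounded and tested with edgeR 4.0.16 in R 4.3.3 (filterByExpr with a minimum count of 10, TMM, glmQLFit, glmQLFTest). All 9 genes passed this filter in both fits. TRAP was fitted on 14 libraries and the age, induction and sex comparisons on 29 inputs, with group and sex. Standard errors were derived from the F statistic. CPM used TMM over all 36 libraries, and log2 CPM a prior count of 2. Lengths are those of GENCODE vM21 transcripts. Of 184 listed genes 182 were matched, 4 by gene identifier. Results of 1 further listed gene are not reported here. Groups and animals came from the labels. TRAP and input libraries were paired by the animal number in the labels, and their deviations from group means correlated in all 7 pairs (r from 0.37 to 0.54 over 14097 genes). The labels give a separate animal for each library within a group. The edgeR tests were also run on simulated counts without animal pairs. Far fewer genes were changed there than were called in TRAP or with age. That run therefore does not check the tests under changes as widespread as those seen here.

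The members and lists were chosen with earlier results of these data known. Named genes were the 9 genes, the largest called increase and decrease of each list, Tap1, Tap2, B2m, H2-K1, H2-D1, Irf1 and Nlrc5, and the 3 genes most like each inducible subunit. Ifng, the T and NK cell genes and the genes listed at 0 were named after their values were seen. Alternatives were other scalings (upper quartile, library size, DESeq2 1.42.0 size factors), DESeq2, limma 3.58.1 voom, filters, covariates, subsets of libraries and each library left out. In DESeq2 2 alternatives of the 9 genes had no adjusted p.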

Additional observations from a re-analysis of the deposited data

Results flagged for a closer look

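Of 45 groups of values tested for an isolated library 1 stood out, where chance would give about 2.25. The log2 ratio of TRAP to input for Psmb9 was 4.23 in animal 3 of the old late-induced group, and the next highest animal was at 3.52. The gap was 0.610 of the range over 7 animals, above the critical 0.568. The same animal had the highest TRAP level of Psmb8 (152 CPM) and Psmb9 (49.7 CPM). Its summed T and NK cell markers in TRAP were also the highest (11.2 CPM, group median 3.78), as were its summed microglia markers (29446 CPM, group median 20775). Their part in the ratio was not tested.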

How the results depend on the processing

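Over the 9 genes and 5 comparisons, 1478 of 1557 alternative values kept their direction and their side of the threshold, 41 lost a call, 4 gained one and 32 changed sign, all 32 among values that were not called with the main settings. For TRAP against input, Psmb5 and Psmb7 became -0.14 and -0.13 with upper quartile scaling, -0.10 and -0.093 with library size alone, -0.012 and -0.0012 with DESeq2 size factors, and -0.012 and -0.0016 with DESeq2. The share of TRAP calls that were higher fell from 51.4% to 34% with upper quartile scaling and to 38.3% with library size alone (median of all genes -0.13), whereas the share for the age calls moved by less than 10 percentage points.

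In females alone the age calls fell to 1198 for old early and 2787 for old late animals, and in males alone to 2395 for old early animals. The female log2 values in old early inputs were -0.11 for Irf1, -0.022 for Psmb5, -0.0062 for Psmb7 and -0.059 for Psme1, and in old late inputs -0.036 for Irf1 and -0.022 for Psmb5. For late against early induction, calls numbered 58 with DESeq2, 0 with only both groups in the fit (1624 at an unadjusted p under 0.05 by edgeR) and 182 in females alone, where Psmb5 was at -0.00022 and Tap1 at 0.17. Tap1 was at 0.020 without the sex term and 0.0068 with only both groups. Sex calls numbered 64 with DESeq2 and 12 in early-induced inputs, where H2-K1 was at 0.067 and Nlrc5 at 0.059. Psmb9 was at -0.0095 with voom. A prior count of 5 moved the young median log2 ratio of Psmb9 to Psmb6 from -6.53 to -6.18. The cause of these changes was not tested.

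With each library left out in turn, calls ranged from 8150 to 8720 (TRAP), 3294 to 4011 (old early), 4352 to 5393 (old late), 0 to 164 (late against early) and 17 to 32 (sex). The values that crossed 0 ranged from -0.012 to 0.023 (Psmb5) and -0.027 to 0.033 (Psmb7) in TRAP, from -0.021 to 0.072 (Irf1) in old early inputs, and from -0.029 to 0.077 (Psmb10), -0.0097 to 0.039 (Psmb5) and -0.12 to 0.062 (Tap1) between old groups. Between sexes they ranged from -0.13 to 0.0097 (H2-K1), -0.073 to 0.017 (Irf1), -0.015 to 0.064 (Psmb8), -0.038 to 0.25 (Psmb9) and -0.023 to 0.050 (Psme1).

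With the animal as a replicate block, 9330 genes were called in TRAP against 8640 without it, and no call among the 9 genes changed. Psmb9, at 10 to 55 counts in the early-induced inputs, is the least precise of the 9 genes. With 2 males among the old late-induced animals, sex there is poorly sampled.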
